A study of Mus musculus with 15 samples.

Results

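The genes described here are 9 coagulation and fibrinolysis genes whose products act at the vessel wall: Vwf, Thbd, Procr, F8, F3, Tfpi, Tfpi2, Plat and Plau. They were taken by gene symbol from the 44674 genes of the count table, each symbol matched 1 gene, and all 9 passed the filter on low counts. Their levels were compared over the 8 conditions of the study. The sorted BMECs (bone marrow endothelial cells) of P0, Emcn+ or Emcn−, the Emcn− cells of lung cultures, BM MSC (mesenchymal stromal cells) and the Emcn− cells of the later passages P1, P2 and P3 had 2 libraries each. Passage P4 had 1 library, so it has no spread.

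Emcn is endomucin, a surface sialomucin by which the cells were sorted. The endothelial cultures came from tamoxifen-treated Tie2-CreERT2;Rosa26-tdTomato mice, in which a Tie2 promoter drives an inducible Cre and Cre turns on a red fluorescent reporter. Whole bone marrow or digested lung was grown in EGM-2, an endothelial medium that contains heparin and VEGF. P0 is the first culture, and P1 to P4 are its later passages. Cells negative for CD45, a leukocyte marker, and positive for tdTomato were sorted. BM MSC were grown in MesenCult medium from the marrow of Osx-Cre;Rosa26-tdTomato mice, where the osterix promoter drives Cre, and were sorted in the same way. By the methods of the study the mice were 4 to 6 months old and of either sex. The labels give the genotype of every library as WT and give no Emcn status for lung, which is taken from those methods. A culture dish usually held the cells of 1 mouse. The methods describe repeat cultures as begun from another animal and the sequenced samples as biologically independent, while the labels tie no library to an animal. P-values measure the spread between these libraries.

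Blood clotting starts when tissue factor, the product of F3, meets plasma factor VII. Thrombin is then made with the help of factor VIII (F8), which circulates bound to von Willebrand factor (Vwf). The vessel wall holds this back with thrombomodulin (Thbd) and the endothelial protein C receptor (Procr), which together turn thrombin into an activator of protein C, and with the tissue factor pathway inhibitors Tfpi and Tfpi2. Clots are dissolved by plasmin, which tissue-type plasminogen activator (Plat) and urokinase (Plau) release from plasminogen. Quiescent endothelium is known for little tissue factor, and sinusoidal endothelium is a known source of factor VIII.

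Promoter sequences of F3, F8 and Tfpi2 are shown because F3 and F8 differed most, and in opposite directions, between the sorted P0 populations, and Tfpi2 was the member with the lowest level in BM MSC relative to the other cultures. Each run is 300 bases in GRCm38.p6 from RefSeq, 250 before and 50 after an annotated start, on the strand of the gene. Capitals mark matches on either strand to TATAAA (the TATA box), GGGCGG (the GC box that Sp factors bind), CACCC (the box that Krüppel-like factors bind), AGGAAG (a site of ETS factors), TGANTCA (the AP-1 site) or TGACGTCA (the cAMP response element).
F3, chr3:121723287-121723586, plus strand: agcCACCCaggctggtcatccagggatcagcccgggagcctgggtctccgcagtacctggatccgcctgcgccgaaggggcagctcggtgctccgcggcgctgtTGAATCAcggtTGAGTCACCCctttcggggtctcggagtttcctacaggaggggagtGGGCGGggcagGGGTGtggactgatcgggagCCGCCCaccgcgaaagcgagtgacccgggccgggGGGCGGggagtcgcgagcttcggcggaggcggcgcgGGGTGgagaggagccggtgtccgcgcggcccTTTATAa
F8, chrX:75379992-75380291, minus strand: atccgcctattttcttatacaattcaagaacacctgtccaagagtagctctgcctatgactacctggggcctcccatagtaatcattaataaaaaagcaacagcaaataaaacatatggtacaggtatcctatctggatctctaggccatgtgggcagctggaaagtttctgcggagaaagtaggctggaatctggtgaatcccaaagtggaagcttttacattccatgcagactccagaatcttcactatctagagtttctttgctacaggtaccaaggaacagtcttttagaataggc
Tfpi2, start site 3, chr6:3968326-3968625, minus strand: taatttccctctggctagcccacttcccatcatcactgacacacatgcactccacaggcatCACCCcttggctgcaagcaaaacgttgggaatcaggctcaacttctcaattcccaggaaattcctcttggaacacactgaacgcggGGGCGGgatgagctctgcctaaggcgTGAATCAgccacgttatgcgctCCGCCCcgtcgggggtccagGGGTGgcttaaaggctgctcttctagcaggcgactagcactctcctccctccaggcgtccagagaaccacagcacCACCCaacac
The F3 window held 3 matches to GGGCGG, 4 to CACCC, 2 to TGANTCA, whose first bases lie at positions -146 and -135, and 1 to TATAAA at position 44, past the start, where position 1 is the first base after the start. The TGANTCA match at -135 shares its last 2 bases with the CACCC match at -130. The F8 window held none of the 6 motifs. The Tfpi2 window at start site 3 held 2 matches to GGGCGG, 3 to CACCC and 1 to TGANTCA at position -77. Tfpi2 has 2 more annotated starts in the table: the window of site 1 (GC content 43.7%) held none of the motifs, and that of site 2 (44.7%) held 2 matches to CACCC and none to the others. Site 3 is the one printed because it holds the most matches. Among all 32851 promoters of the table, 35.7% held GGGCGG, 57.5% CACCC, 7.81% TGANTCA, 13.6% TATAAA, 35.4% AGGAAG and 1.79% TGACGTCA. GC content was 70.3% in the F3 window, 42.3% in the F8 window and 57.3% in the Tfpi2 window, with a median of 52.7% over all promoters. Promoters were found for 5 of the 9 members. Procr and Tfpi were the others, and Procr held 1 match to CACCC and 1 to TGANTCA.

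In GRCm38 and GENCODE release 21 of the mouse annotation, F3 spans chr3:121723537-121735048 on the plus strand with 7 exon blocks, and F8 spans chrX:75172715-75382615 on the minus strand with 27. The F8 window printed above lies inside this F8 span and does not hold its upstream end. The absence of motifs in F8 therefore applies to the printed window only. Vwf lies at chr6:125546774-125686679 on the plus strand, Thbd at chr2:148404466-148408188 on the minus strand as a single exon, and Procr at chr2:155751117-155755471 on the plus strand. Tfpi lies at chr2:84432855-84476775 and Tfpi2 at chr6:3962595-3988919, both on the minus strand. Plat lies at chr8:22757727-22782844 and Plau at chr14:20836660-20843385, both on the plus strand. Values are transcript estimates summed per gene, not counts over the exons of this annotation. Only F8 overlaps other annotated genes, Gm6039, Gm8522 and Fundc2, and it shares 0 exon bases with them.

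Libraries held 9914620 to 39718807 counts, so 3 counts correspond to 0.076 to 0.303 CPM (counts per 1e6 counts of the library), the limit that a count of 0 allows for counting error only. The P0 Emcn− replicate 2 library was the shallowest. The label of each population was checked against marker lists (summed CPM over each list). The 8 endothelial markers summed to 9388 to 11596 CPM in P0 Emcn+ BMECs, 66.9 to 252 in P0 Emcn− BMECs, 126 to 461 in lung, 43.8 to 67.9 in P1 to P4 and 41.0 to 324 in BM MSC. The 6 mesenchymal or fibroblast markers summed to 142 to 208 CPM in P0 Emcn+ BMECs, 11512 to 14069 in P0 Emcn− BMECs, 8235 to 9827 in lung, 2661 to 4716 in P1 to P4 and 7856 to 13714 in BM MSC. The markers thus went against an endothelial name in the libraries labelled Emcn− and in lung, and those names below are the labels alone. The markers did not move alike: in P1 to P4, Cdh5 (VE-cadherin), Cldn5, Erg, Tie1 and Egfl7 were each at 2.33 CPM or less, with Cldn5 at 0 in P4. Pecam1, Tek and Kdr stayed between 7.96 and 40.3 CPM there. The mean of Tek was 35.2 CPM in P1 and 34.9 in P0 Emcn− BMECs, and that of Kdr was 10.1 to 23.3 CPM in P1 to P4 and 8.34 in P0 Emcn− BMECs. The 6 macrophage or leukocyte markers summed to 457 to 489 CPM in P0 Emcn+ BMECs, 185 to 228 in P0 Emcn− BMECs and 8.69 to 221 in P1 to P4. The 5 megakaryocyte or platelet markers summed to at most 7.06 CPM in any library. The 3 lymphatic markers (Prox1, Lyve1 and Flt4) summed to 792 to 929 CPM in P0 Emcn+ BMECs and to at most 31.3 CPM in any other library. Prox1 alone was at 8.30 and 10.7 CPM in P0 Emcn+ BMECs. The paper lists Flt4 as a sinusoidal marker too. The 5 osteolineage markers summed to 4.31 to 6.53 CPM in P0 Emcn+ BMECs, 51.9 to 185 in P0 Emcn− BMECs, 29.9 to 34.7 in lung, 18.7 to 22.9 in P1 to P4 and 126 to 211 in BM MSC. In bulk libraries, fewer cells of a type and less RNA per cell cannot be told apart.

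**Figure D1:**
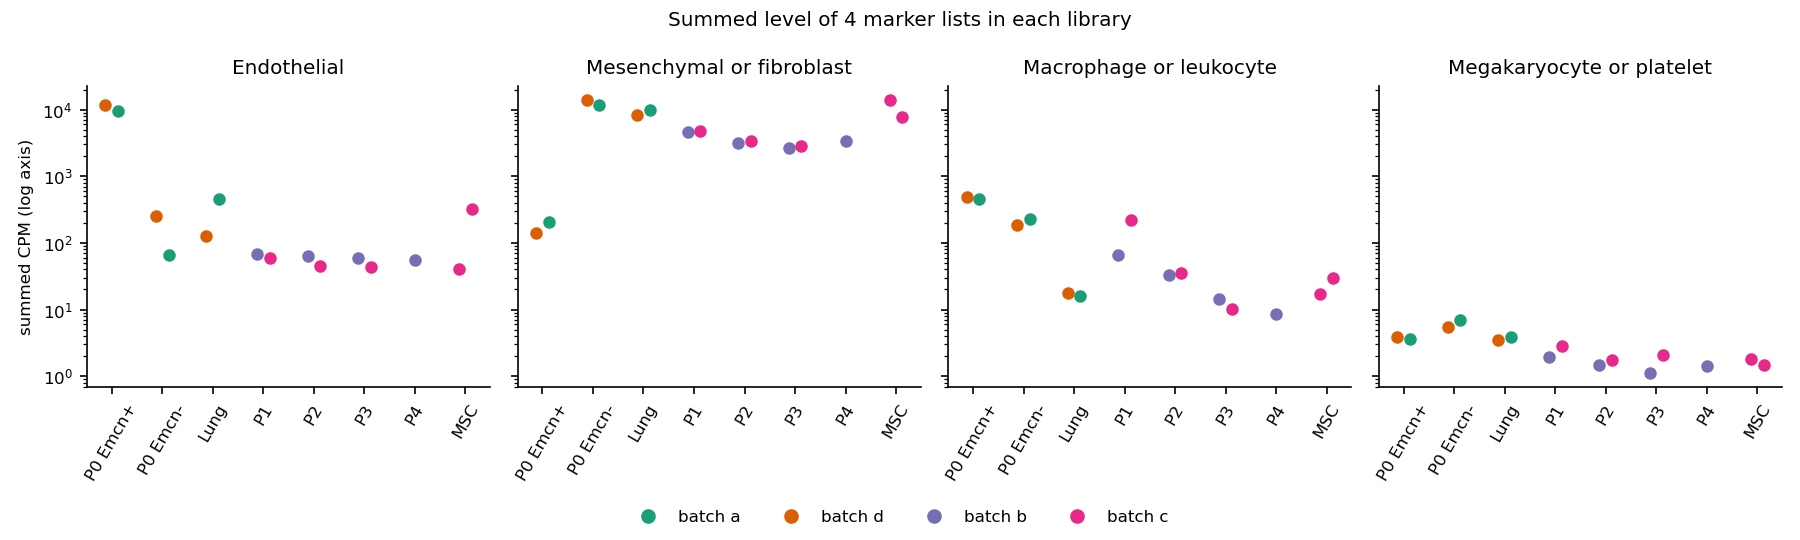
Summed CPM of 4 marker lists (log axis) in each library, by condition on the horizontal axis and coloured by the batch in the labels. Endothelial markers stood at 9388 CPM or more in both P0 Emcn+ libraries and at 461 CPM or less in every other library, while mesenchymal markers showed the opposite order.

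Among the procoagulant genes, F3 ranged over the libraries more than any other member, with a ratio of 1273 between the highest and the lowest library. F3 (tissue factor) stood at 1.36 and 0.309 CPM in P0 Emcn+ replicates 1 and 2, and at 141 and 62.3 CPM in the Emcn− cells of P0. Lung was at 70.4 and 48.5 CPM. F3 was at 29.6 and 20.3 CPM in P1, 23.7 and 15.4 in P2, 22.8 and 15.5 in P3 and 33.2 in P4. In BM MSC it was at 90.2 and 394 CPM. Every other library lay above both P0 Emcn+ libraries. The 2 BM MSC libraries lay far apart, and the sums of their endothelial markers were 41.0 and 324 CPM. Their part in the F3 level was not tested.

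F8 (factor VIII) had the reverse order of F3 at P0. It stood at 217 and 187 CPM in P0 Emcn+ BMECs and at 6.50 and 5.35 CPM in P0 Emcn− BMECs. Lung was at 5.47 and 6.04 CPM, and BM MSC at 12.9 and 17.2 CPM. P1 to P4 lay between 13.3 and 17.6 CPM. So both P0 Emcn+ libraries stood far above the other 13, which fell into a lower range of P0 Emcn− and lung and a higher range of P1 to P4 and BM MSC that did not overlap. The lower range held only libraries of batches a and d, and the higher range only those of batches b and c. Batch and population therefore cannot be told apart in this split.

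Vwf (von Willebrand factor, stored in endothelial granules and in platelets) was low in all marrow libraries. It was at 4.82 and 6.72 CPM in P0 Emcn+ BMECs, 3.50 and 3.33 in P0 Emcn− BMECs, and 0.842 to 1.58 in P1 to P4 and BM MSC. The lung replicates 1 and 2 stood at 21.9 and 201 CPM. Both lung libraries lay above all others, but they differed more from each other than the P0 Emcn+ and P0 Emcn− libraries did. The lung replicate with more Vwf also had the larger endothelial marker sum, 461 against 126 CPM, and more Selp (P-selectin, stored in the same granules), at 52.1 against 7.65 CPM. Their part in the Vwf level was not tested.

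Of the anticoagulant genes, Thbd (thrombomodulin) was highest in the passaged cells. It stood at 207 and 252 CPM in P1, 285 and 287 in P2, 301 and 319 in P3 and 286 in P4. Lung was at 166 and 141 CPM and BM MSC at 141 and 134. P0 Emcn+ BMECs were at 42.1 and 76.6 CPM and P0 Emcn− BMECs at 36.5 and 119 CPM. The passaged libraries all lay above the other 8, and the P0 Emcn+ and P0 Emcn− ranges overlapped.

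Procr (endothelial protein C receptor) varied widely between the replicates of P0 and of lung. It was at 50.1 and 84.1 CPM in P0 Emcn+ BMECs, 12.99 and 105 in P0 Emcn− BMECs and 24.8 and 70.7 in lung. In each of these conditions replicate 2, of batch a, was higher than replicate 1, of batch d. P1 stood at 83.6 and 67.5 CPM, P2 at 59.7 and 53.9, P3 at 45.4 and 39.7, P4 at 49.7, and BM MSC at 18.3 and 25.1.

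Tfpi (tissue factor pathway inhibitor) was highest in lung, at 154 and 171 CPM, followed by P0 Emcn+ BMECs at 121 and 141 CPM. P0 Emcn− BMECs were at 45.3 and 48.6 CPM. The passaged libraries split by batch: the batch b libraries of P1 to P4 lay between 62.6 and 70.8 CPM and the batch c libraries of P1 to P3 between 38.6 and 42.4 CPM. BM MSC were at 39.4 and 93.2 CPM. The lung and P0 Emcn+ libraries lay above all others.

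Tfpi2, a related inhibitor of plasmin and other proteases, was at 170 and 81 CPM in P0 Emcn+ BMECs. It was at 27.0 and 25.8 CPM in P0 Emcn− BMECs, and lung was at 22.6 and 14.6. P1 stood at 12.7 and 10.4 CPM, P2 at 17.3 and 9.48, P3 at 27.6 and 11.96 and P4 at 28.3. BM MSC were lowest, at 0.337 and 2.98 CPM, which is 12 and 98 counts.

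The plasminogen activators took opposite orders at P0. Plau (urokinase) was at 423 and 321 CPM in P0 Emcn+ BMECs and 139 and 130 CPM in P0 Emcn− BMECs. Lung was at 33.4 and 61.9 CPM and BM MSC at 31.9 and 50.2. P1 stood at 139 and 119 CPM, P2 at 225 and 154, P3 at 239 and 172 and P4 at 264. Plat (tissue-type plasminogen activator) was instead lowest in P0 Emcn+ BMECs, at 27.1 and 11.7 CPM. It was at 97.4 and 74.8 CPM in P0 Emcn− BMECs and highest in lung, at 109 and 135 CPM. P1 was at 54.7 and 57.4 CPM, P2 and P3 between 35.2 and 40.0, P4 at 39.2, and BM MSC at 51.4 and 62.0.

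**Figure D2:**
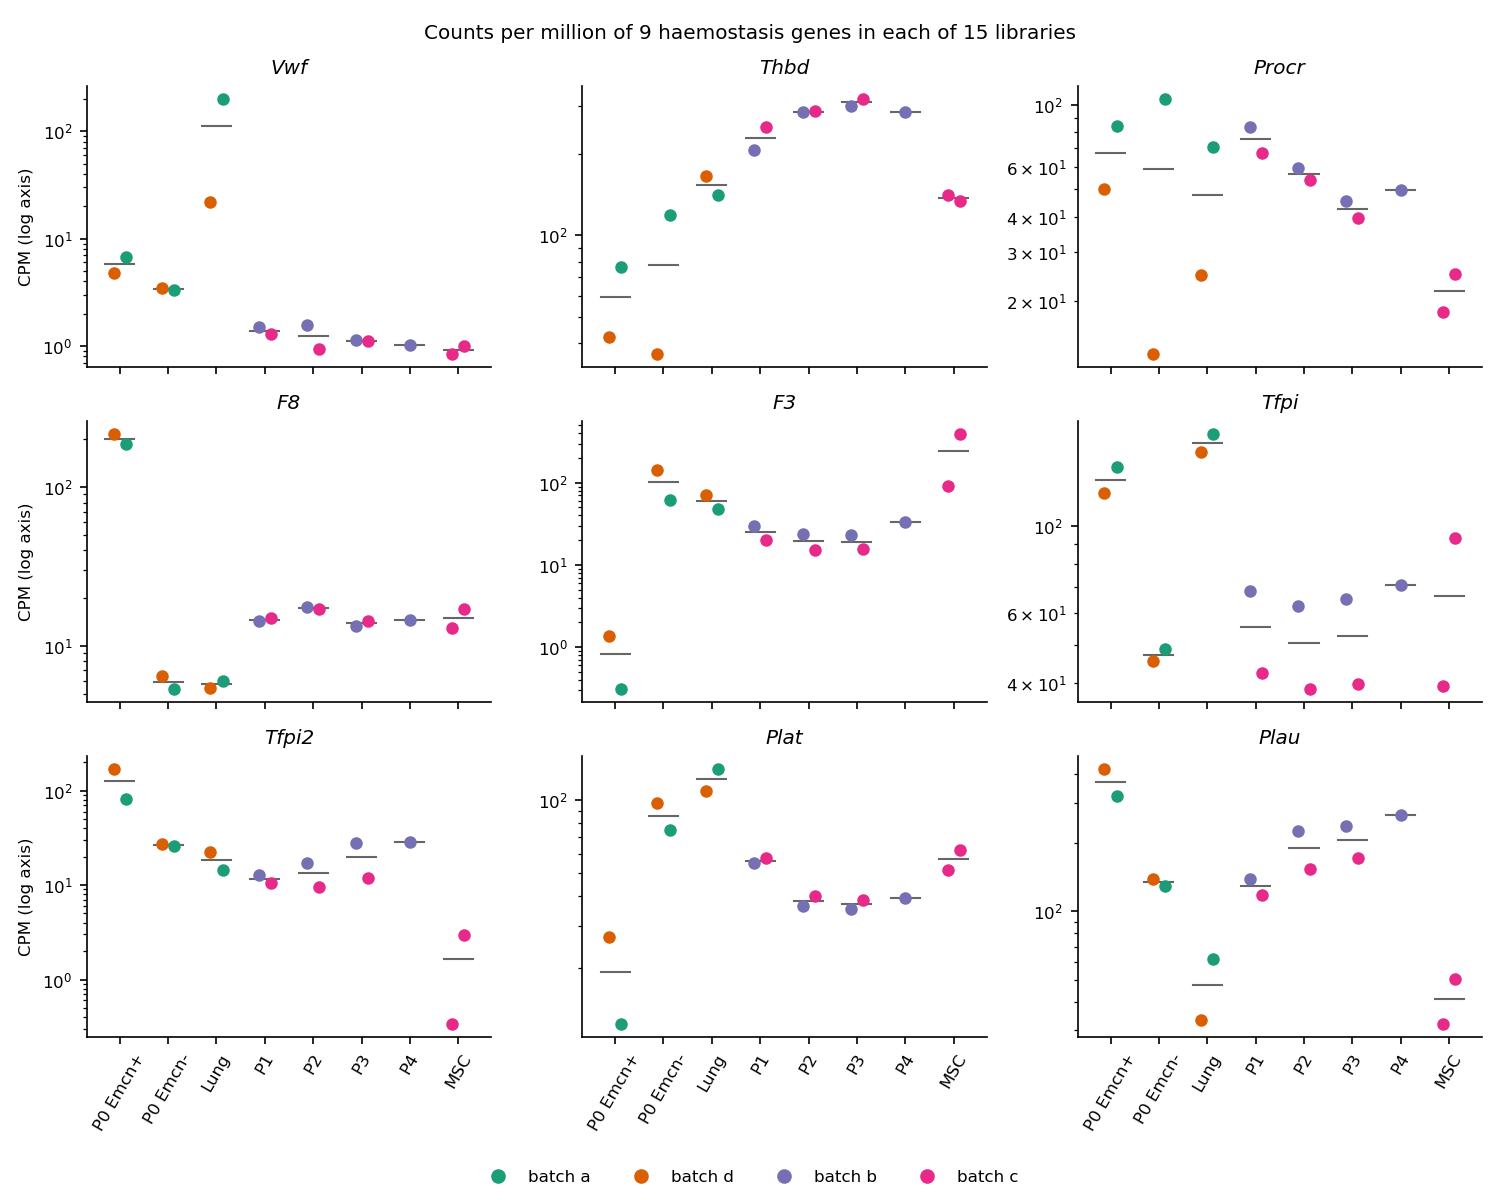
CPM (log axis, a separate range in each panel) of the 9 genes in the 15 libraries, by condition on the horizontal axis, with points coloured by batch and a bar at the mean of the condition. F8 stood apart in P0 Emcn+ BMECs (217 and 187 CPM), where F3 was lowest (1.36 and 0.309 CPM), and Vwf stood apart in lung (21.9 and 201 CPM).

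Tested over the 8 conditions by the F test of edgeR, 8 of the 9 members were called at an adjusted p under 0.05, where 63.5% of the 19401 genes tested were called. Procr was the exception (adjusted p = 0.517). The smallest adjusted p belonged to F8 (1.21e-07), then Vwf (8.78e-05), Plau (0.000295) and F3 (0.000648). Plat (0.00132), Tfpi2 (0.00245), Thbd (0.00435) and Tfpi (0.0169) followed. Without lung replicate 2, Tfpi missed the limit (adjusted p = 0.056), and without P0 Emcn− replicate 2, Procr passed it (adjusted p = 0.0212).

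The next comparisons were called where the adjusted p was under 0.05 and the log2 fold change was beyond 1.5 in either direction, both from edgeR's quasi-likelihood test with adjustment over all genes tested. Log2 fold changes are fitted differences and follow the order in which the groups are named. The first comparison asked how the sorted Emcn+ and Emcn− BMECs of P0 differ. F8, Tfpi2, Tfpi and Plau were higher in P0 Emcn+ BMECs and F3 and Plat were lower, so 6 of the 9 members were called. Of all genes tested, 7.79% were called higher and 11.4% lower. The log2 fold change of F8 was 5.11 ± 0.18 (SE), 34.5-fold (adjusted p = 2.1e-07). That of F3 was -6.85 ± 0.90, 115-fold lower (adjusted p = 0.000262). The inhibitors Tfpi2 and Tfpi rose by 2.28 ± 0.73 (adjusted p = 0.0339) and 1.51 ± 0.41 (adjusted p = 0.0172). Plau was 2.83-fold higher (1.501 ± 0.33, adjusted p = 0.00598) and Plat 4.32-fold lower (-2.11 ± 0.32, adjusted p = 0.00063).

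For all 6 of these the groups did not overlap and the difference had the same sign in both batches. Within batch a the log2 difference was 5.13 for F8 and -7.66 for F3, and within batch d it was 5.06 and -6.69. For Thbd and Procr the batches disagreed in sign. Procr differed by -0.32 in batch a and 1.95 in batch d, and Thbd by -0.63 and 0.21. Neither was called, with 95% intervals of -1.41 to 1.88 for Procr and -1.32 to 0.62 for Thbd. Vwf differed by 0.78 with an interval of -0.87 to 2.43. Endothelial, lymphatic and macrophage markers were higher in P0 Emcn+ BMECs, and mesenchymal and osteolineage markers lower, as given above. Their part in these differences was not tested.

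F8, F3 and Plat were called at P0 whichever library was left out. Tfpi missed the limits when P0 Emcn+ replicate 2 (1.41) or either P0 Emcn− library was left out (1.48 for replicate 1 and 1.56, adjusted p = 0.0688, for replicate 2). Tfpi2 missed them when P0 Emcn+ replicate 1 (1.66) or either P0 Emcn− library was left out (2.34 and 2.25). Plau was under the fold limit when P0 Emcn+ replicate 1 (1.30) or replicate 2 of P0 Emcn− (1.45) was left out. Tfpi and Plau also fell under the fold limit with DESeq2 and ashr shrinkage, the kind of fold estimate the study used (1.29 and 1.38), and where only genes with 50 counts or more in 2 libraries were kept (1.48 and 1.47), so each of these settings called 4 members. Without P0 Emcn− replicate 2, Procr was called higher (2.40, adjusted p = 0.0138).

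**Figure D3:**
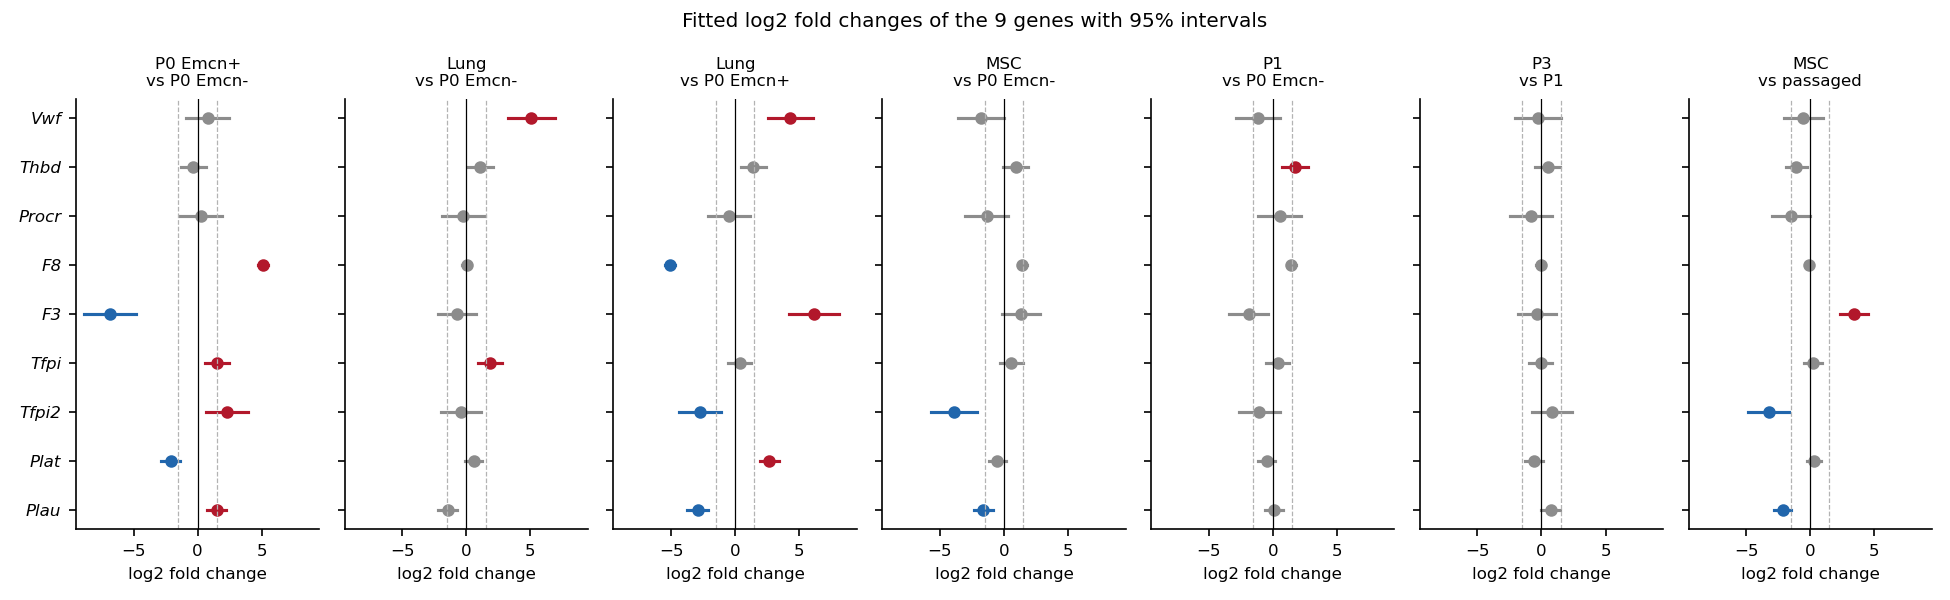
Fitted log2 fold changes (points) with 95% intervals (bars) of the 9 genes in 7 comparisons, red where called higher, blue where called lower and grey where not called, with dashed lines at the fold limit of 1.5 either way. The comparison of P0 Emcn+ with P0 Emcn− shows F8 at 5.11 and F3 at -6.85, and in P3 against P1 every point is grey.

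The comparison of lung with marrow asked how Emcn− cultures of these organs differ. Against P0 Emcn− BMECs, Vwf and Tfpi were called higher in lung, 2 of the 9 members, and none was called lower. Of all genes, 2.13% were called higher and 1.70% lower. The log2 fold change of Vwf was 5.07 ± 0.83 (33.6-fold, adjusted p = 0.00816) and that of Tfpi 1.86 ± 0.42 (3.62-fold, adjusted p = 0.0308). Plau met the p limit but not the fold limit (-1.44 ± 0.33, adjusted p = 0.0353). F8 differed by 0.01 with a 95% interval of -0.36 to 0.37. F3 differed by -0.71 with an interval of -2.19 to 0.77.

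Within batches a and d, the log2 difference of Vwf between lung and P0 Emcn− was 5.92 and 2.64, and that of Tfpi was 1.82 and 1.76. The fitted log2 fold change of Vwf was 2.76 without lung replicate 2, and its call was lost when P0 Emcn− replicate 1 was left out (5.12, adjusted p = 0.0598) and in a fit of the 2 groups alone (adjusted p = 0.104). Tfpi was not called when any of the 4 libraries was left out (1.80 to 1.91). Without P0 Emcn− replicate 2 Thbd was called higher (2.13, adjusted p = 0.00978), and without lung replicate 2 Plau was called lower (-1.93, adjusted p = 0.0292). The count was 0 without P0 Emcn− replicate 1 and 1 without lung replicate 1.

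Against P0 Emcn+ BMECs, 6 members were called in lung. Vwf, F3 and Plat were higher and F8, Tfpi2 and Plau lower, where 12.6% of all genes were called higher and 8.48% lower. F3 differed by 6.14 ± 0.88 (adjusted p = 0.000424), Vwf by 4.29 ± 0.79 (adjusted p = 0.00196) and Plat by 2.67 ± 0.32 (adjusted p = 0.000157). F8 differed by -5.10 ± 0.18 (adjusted p = 1.7e-07), Plau by -2.94 ± 0.35 (adjusted p = 0.000145) and Tfpi2 by -2.71 ± 0.74 (adjusted p = 0.0153). Tfpi, called against P0 Emcn−, differed here by 0.34 with an interval of -0.55 to 1.24. This comparison and the 2 before it share libraries, so their calls are not independent.

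Thbd in lung against P0 Emcn+ met the p limit only (1.41 ± 0.44, adjusted p = 0.0292). With the replicate block it was called (1.55, adjusted p = 0.0116), as it was without P0 Emcn+ replicate 2 (1.89). Vwf was at 1.96 without lung replicate 2 and was still called. Tfpi2 was not called without P0 Emcn+ replicate 1 (-2.10), lung replicate 1 (-3.10) or lung replicate 2 (-2.43).

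The change from P0 to P1 asked what the first passage does to Emcn− BMECs. Thbd was the single member called, 3.31-fold higher in P1 (1.73 ± 0.45, adjusted p = 0.027). Of all genes, 5.77% were called higher and 3.07% lower. F8 was 2.73-fold apart (1.45 ± 0.16, adjusted p = 0.00034) and so met the p limit but not the fold limit, while F3 met the fold limit but not the p limit (-1.87 ± 0.69, adjusted p = 0.0844). Plau was at 0.09 with an interval of -0.63 to 0.82. P0 and passaged libraries share no batch, so batch and passage cannot be told apart here.

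The P1 call of Thbd was lost with ashr shrinkage (1.38), in a fit of the 2 groups alone (adjusted p = 0.139), and without P0 Emcn− replicate 1 (1.099), P1 replicate 1 (1.84) or P1 replicate 2 (1.60), and its value was 2.78 without P0 Emcn− replicate 2. F8 was called without P0 Emcn− replicate 1 (1.61) and Procr without P0 Emcn− replicate 2 (2.68). F3 was called lower without BM MSC replicate 1 (-1.87, adjusted p = 0.0437) or replicate 2 (-1.89, adjusted p = 0.0454), and stood at -1.16 without P0 Emcn− replicate 1. The number of members called ran from 0, without either P1 replicate, to 2, without P0 Emcn− replicate 2 or either BM MSC replicate.

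From P1 to P3, 0 members were called by edgeR, 0 had an unadjusted p under 0.05 and 0 were called by DESeq2. Of all genes, 0.0773% were called higher and 0.144% lower. The test did not pair P1 with P3 by batch and took its spread from all conditions. Its p-values therefore do not measure the spread of the paired difference, and the lack of calls does not show that levels stayed the same. The values had the same sign in both batches for all 9 members. The log2 difference of Plau was 0.78 in batch b and 0.53 in batch c (fitted 0.71 ± 0.33, interval -0.02 to 1.44), and that of Thbd 0.54 and 0.34 (fitted 0.47 ± 0.43). Plat differed by -0.64 and -0.57 (fitted -0.57 ± 0.31, interval -1.25 to 0.11), and Procr by -0.88 and -0.77 (fitted -0.79 ± 0.74). Tfpi, fitted at -0.04, turned to 0.37 without P1 replicate 1 and to 0.30 without P3 replicate 2. F8 differed by -0.05 with an interval of -0.39 to 0.30. Macrophage markers summed to 65.9 and 221 CPM in P1 and to 14.4 and 10.3 in P3. The sum of the mesenchymal markers was lower in P3 too, but not every marker fell. Col1a1 was at 469 and 647 CPM in P1 and 571 and 739 in P3. Pdgfrb was at 285 and 314 CPM in P1 and 297 and 329 in P3. The part of these markers was not tested.

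BM MSC were compared with P0 Emcn− BMECs and with the passaged cells, since mesenchymal cells grow in the same cultures. The BM MSC libraries did not come from those cultures but from another mouse line and medium. Cell type, mouse line and medium therefore cannot be told apart in either comparison. Against P0 Emcn− BMECs, Tfpi2 was 15.2-fold lower (-3.93 ± 0.81, adjusted p = 0.00483) and Plau 3.09-fold lower (-1.63 ± 0.34, adjusted p = 0.00486), so 2 of 9 members were called lower and none higher. Of all genes, 11.3% were called higher and 7.45% lower. F8 met the p limit only (1.42 ± 0.16, adjusted p = 0.000199). F3 was at 1.32 with an interval of -0.18 to 2.81. The groups share no batch, so batch and cell source cannot be told apart.

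In this comparison the call of Plau was lost under the replicate block (-1.40, adjusted p = 0.0116), with ashr shrinkage (-1.40) and without BM MSC replicate 1 (-1.36). Tfpi2 stood at -6.17 without BM MSC replicate 2 and missed the limit in a fit of the 2 groups alone (adjusted p = 0.0658). Without P0 Emcn− replicate 1, Procr (-2.19) and F8 (1.58) were called too. Without P0 Emcn− replicate 2 Thbd was called higher (1.98). Without BM MSC replicate 1, F3 (2.01, adjusted p = 0.0414) and F8 (1.59) were called higher, and without replicate 2 F3 turned to -0.07. Without lung replicate 1 or 2, Vwf was called lower (-1.82 and -1.81).

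Against the mean of P1, P2 and P3, BM MSC had 10.6-fold more F3 (3.40 ± 0.49, adjusted p = 0.000728), the 1 member called higher. Plau was 4.48-fold lower (-2.16 ± 0.31, adjusted p = 0.000668) and Tfpi2 9.56-fold lower (-3.26 ± 0.73, adjusted p = 0.00749). Of all genes, 8.42% were called higher and 5.81% lower. Thbd (-1.08 ± 0.38, adjusted p = 0.0512) and Procr (-1.49 ± 0.66, adjusted p = 0.115) missed the limits although their groups did not overlap. F8 differed by -0.11 with an interval of -0.39 to 0.17. Mouse line and medium differed between these groups too. The fit counted libraries of successive passages as independent samples, although their deviations correlated at 0.354 to 0.451. Its SEs and adjusted p-values may therefore be too small.

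The 3 calls between BM MSC and passaged cells held when any library was left out and in batch c alone, where F3 was at 3.74, Plau at -1.93 and Tfpi2 at -2.77. Without BM MSC replicate 2, the F3 difference was 2.03 and that of Tfpi2 was -5.49. The passaged libraries of batch c come from successive passages, and the fit of that batch alone counted them as replicates. Leaving out a passage kept its neighbours, so these settings are not independent checks. Smooth muscle or mural markers summed to 1065 to 1488 CPM in BM MSC and to 17.9 to 63.2 in P1 to P4. Their part was not tested.

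The median log2 fold change of the 9 members was 0.78 in P0 Emcn+ against P0 Emcn−, beside -0.06 for all genes tested. In lung it was 0.01 against P0 Emcn− (0 for all genes) and 0.34 against P0 Emcn+ (0.06). It was 0.09 from P0 Emcn− to P1 (0.02) and -0.05 from P1 to P3 (-0.01). For BM MSC it was -0.51 against P0 Emcn− (0.01) and -0.54 against passaged cells (0.01).

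Levels of different members were compared per length, as CPM divided by the kb of exon of each gene. The length was the union of all annotated exons of a gene, 16064 bases for Vwf, which can be longer than its transcripts. The order between genes therefore depends on the annotation. On this scale Plau led in P0 Emcn+ BMECs with a mean of 157, followed by Tfpi2 at 71.8 and Procr at 33.1, and F3 was last at 0.331. In P0 Emcn− BMECs Plau was again first at 56.8, and F3 was second at 40.3. Thbd led in lung at 41.3 and in P1 at 61.6, and in P2 to P4 it was second to Plau. F3 led in BM MSC at 95.8. Vwf was last or next to last in every condition, reaching 6.94 in lung. F8 was at 20.4 in P0 Emcn+ BMECs and between 0.581 and 1.74 elsewhere.

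**Figure D4:**
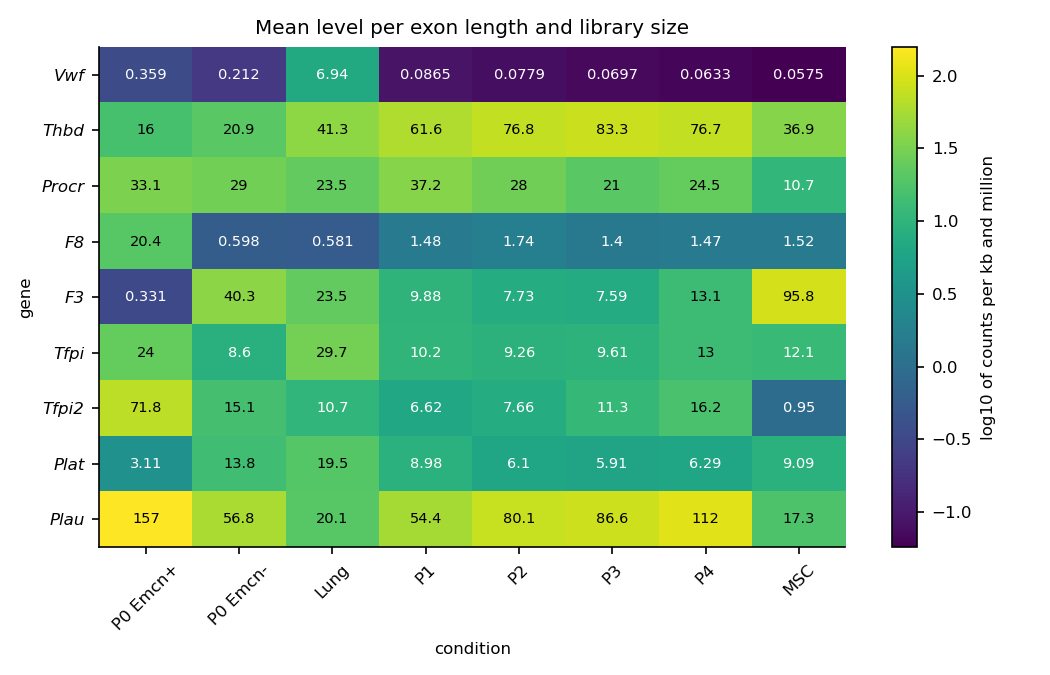
Mean CPM per kb of exon of the 9 genes (rows) in the 8 conditions (columns), with the value printed in each cell and the colour on a log10 scale. Plau was highest in P0 Emcn+ BMECs (157), and the lead passed to Thbd in lung (41.3) and to F3 in BM MSC (95.8).

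A wider list of 38 haemostasis genes outside the 9 was examined beside them, and 26 passed the filter. Between P0 Emcn+ and P0 Emcn− BMECs, 9 were called higher and 4 lower, where 7.79% and 11.4% of all genes were, with a median log2 fold change of 0.99 (0.79 with genes at 0 counts set to their bound) beside -0.06 for all genes. The receptors of thrombin and related proteases included F2rl3 (59.6 against 0.844 CPM, log2 fold change 5.89 ± 0.84) and F2rl1 (12.2 against 0.441 CPM, 4.60 ± 1.03), and 3 of the 4 receptors were called higher. Of the 4 genes of storage and secretion, Selp (37.0 against 0.214 CPM, 7.13 ± 1.25) and Mmrn1, a factor V binding protein (154 against 1.11 CPM, 7.04 ± 0.54), were called higher. In the plasminogen system Plaur, the urokinase receptor, was higher (47.8 against 3.89 CPM, 3.62 ± 0.44), as was Thbs1, thrombospondin 1 (4275 against 846 CPM, 2.37 ± 0.52). Serpine2, an inhibitor of thrombin and urokinase, was lower (19.8 against 556 CPM, -4.78 ± 0.53), as was Lrp1, a clearance receptor for protease and inhibitor complexes and for factor VIII (179 against 6281 CPM, -5.10 ± 0.31).

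In lung against P0 Emcn− BMECs, 1 gene of the wider list was called higher and 3 lower (2.13% and 1.70% of all genes, median 0.27, 0.25 with bounds, against 0 for all genes). Selp was higher (29.9 against 0.214 CPM, 6.85 ± 1.24). F13a1, a subunit of the factor that crosslinks fibrin, was lower (1.24 against 40.1 CPM, -4.99 ± 0.98). Macrophage markers summed to 15.9 to 17.5 CPM in lung and 185 to 228 CPM in P0 Emcn− BMECs, and their part in the F13a1 difference was not tested. Serpine2 was lower as well (38.6 against 556 CPM, -3.80 ± 0.51).

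Against P0 Emcn+ BMECs, lung had 2 genes of the wider list called higher and 7 lower (12.6% and 8.48% of all genes, median -0.38 beside 0.06). Lrp1 was higher (5.00 ± 0.31). Mmrn1 (-8.96 ± 0.60), F2rl3 (-7.29 ± 0.92), F13a1 (-6.17 ± 1.02), F2rl1 (-3.37 ± 0.95) and Plaur (-3.25 ± 0.43) were lower. So was Adamts13, the protease that cleaves von Willebrand factor (3.20 against 11.6 CPM, -1.83 ± 0.43). Macrophage markers summed to 457 to 489 CPM in P0 Emcn+ BMECs and 15.9 to 17.5 CPM in lung, and their part in these differences was not tested.

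From P0 Emcn− to P1, 2 genes of the wider list were called higher and 4 lower (5.77% and 3.07% of all genes, median -0.53 beside 0.02). S100a10, part of a plasminogen receptor, was higher (394 against 131 CPM, 1.74 ± 0.38). From P1 to P3, 0 were called either way by edgeR (8 had an unadjusted p under 0.05, median 0.07, 0.13 with bounds, beside -0.01). By DESeq2, 0 were called higher and 2 lower.

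In BM MSC against P0 Emcn− BMECs, 6 were called higher and 3 lower (11.3% and 7.45% of all genes, median 0.59, 0.79 with bounds, beside 0.01). Thbs1 reached a mean of 29480 CPM against 846 (5.23 ± 0.59), and Plaur was also higher (11.1 against 3.89 CPM, 1.57 ± 0.41). Against the passaged cells, 10 were called higher and 3 lower (8.42% and 5.81% of all genes, median 0.81 beside 0.01). Thbs1 (5.50 ± 0.38) and Plaur (2.55 ± 0.30) were higher in BM MSC. S100a10 was lower (145 against 457 CPM, -1.74 ± 0.34).

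**Figure D5:**
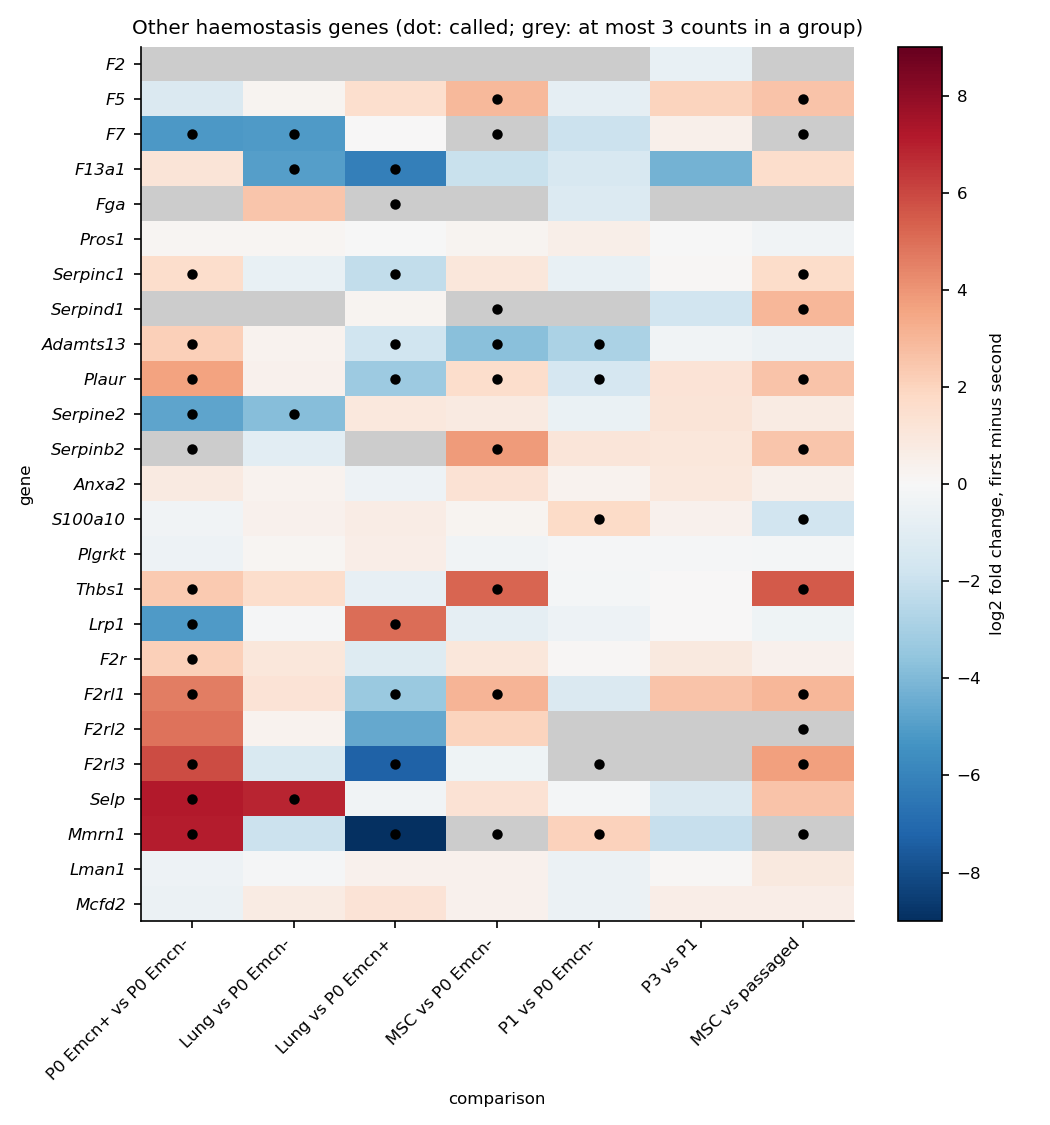
Fitted log2 fold changes of 25 of the 26 tested genes of the wider list (rows) in 7 comparisons (columns), red where higher in the first group and blue where lower, with a black dot where called and grey where a group held at most 3 counts in all. Selp and Mmrn1 are the deepest red in P0 Emcn+ against P0 Emcn− (7.13 and 7.04), and no gene has a dot in P3 against P1.

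Genes with a pattern like that of a member were ranked by Pearson's r of log2 CPM over the 15 libraries among 11302 genes, as a description without a test. The libraries share conditions and batches, and a condition that stands apart weighs on every r. For F8 these were Ccser1 (0.975), Map4k5 (0.970) and Arhgap26 (0.969). For F3 they were Fstl1 (0.960), Runx2, an osteoblast transcription factor (0.959), and Cacna1c (0.958). For Vwf they were Gm12840 (0.946), Slmapos2 (0.917) and Hoxa5 (0.910), and for Thbd Lin52 (0.965), Sema3e (0.963) and 1110032A03Rik (0.957).

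For Tfpi2 the most alike were Rab20 (0.961), Adam19 (0.949) and Glyr1 (0.949), and for Plau Fes (0.949), Smyd2 (0.939) and Ssh1 (0.932). For Plat they were Lima1 (0.938), Sec16b (0.933) and Rnf150 (0.932). Procr, with Adm (0.877), Trio (0.854) and Frg1 (0.854), and Tfpi, with Gm20186 (0.914), Khdrbs3 (0.885) and Golga7 (0.854), had the lowest values. Among the members themselves, F3 and Plat had the highest r (0.813) and F8 and Plat the lowest (-0.882) over the same libraries.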

How the data were processed

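Total RNA of 15 libraries was sequenced from KAPA RNA HyperPrep libraries. By the methods of the study, the first batch of biological replicates ran on another Illumina instrument than the later ones. These instruments were not matched to batches a to d here. The authors aligned reads with STAR to GRCm38, quantified transcripts with Salmon and summed them per gene, and deposited whole-number counts per gene. How estimated counts became whole numbers is not given in the sources used here. Of the rows, 8 had no symbol.

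Genes were filtered with edgeR's filterByExpr (minimum count 10, minimum total 15), which left 19401, and scaled by TMM. edgeR 4.0.16 in R 4.3.3 fitted a quasi-likelihood model with 1 coefficient per condition to all 15 libraries (7 residual degrees of freedom). Benjamini-Hochberg adjustment ran over all genes tested. A gene was called where its adjusted p was under 0.05 and its log2 fold change beyond 1.5 either way, and in the F test over 8 conditions by the adjusted p alone. CPM used total counts. Fits were run on simulated counts with known changes, drawn as independent libraries with no batch or passage structure. Such counts cannot show how the fits behave where libraries share a batch or follow by passage.

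Batch a held replicate 2 of both P0 populations and lung, batch d their replicate 1, batch b replicate 1 of P1 to P4, and batch c replicate 2 of P1 to P3 and both BM MSC libraries. Replicate numbers therefore mark a shared batch in the labels within each of these sets. Deviations of same-numbered libraries correlated across genes at 0.139 to 0.209 among P0 and lung and at 0.354 to 0.451 among P1 to P3. Same-numbered libraries taken 1 from each of these sets share no batch and correlated at 0.000519 to 0.127. The low end for P0 and lung is near that range. The 2 replicates of a condition differed by more than sampling of reads gives (chi-square over its degrees of freedom 42.5 to 141).

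The members and gene lists were chosen with earlier results of these data known. Of the wider list, the text names per comparison the called genes with the largest absolute log2 fold change, at most 8, whose higher group reached 5 CPM in each library. A gene of that list is counted but not reported here by name. The 3 genes most like each member by Pearson's r (prior count 2) came from genes with a symbol and a mean of at least 10 CPM in a condition. Alternatives were RLE scaling, DESeq2 1.42.0 with and without ashr 2.2.63 shrinkage, no filter, at least 50 counts in 2 libraries, a replicate block, the compared groups alone, no fold limit, batch c alone and leaving out each library. Promoters came from RefSeq.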

Additional observations from a re-analysis of the deposited data

How the results depend on the processing

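Of 1575 values of single members under the alternatives, 1498 kept their direction and call, 31 lost a call, 21 gained one and 25 changed sign. Leaving out a library gave 57 of these changes and other settings 20. Many of the values came from leaving out a library outside the compared groups, which enters a comparison only through the shared filter, scaling and spread. The number that kept direction and call therefore overstates how stable the calls are. Where a library is left out, the lone sample of its group is assumed to vary like the other groups. With 2 libraries a condition and depths down to 9914620 counts, folds near the limit are not settled, and for each change the cause was not tested.

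The number of members called moved as follows. In P0 Emcn+ against P0 Emcn− it was 6, but 4 with ashr shrinkage, where Tfpi (1.29) and Plau (1.38) lost their calls, 4 with at least 50 counts in 2 libraries (1.48 and 1.47), and 4 to 6 with a library left out. In lung against P0 Emcn− it was 2, but 1 in a fit of the compared groups alone and 0 to 2 with a library left out. In BM MSC against P0 Emcn− it was 2, but 1 with ashr shrinkage and 2 to 4 with a library left out. In P1 against P0 Emcn− it was 1, but 2 with DESeq2, 0 with ashr, 2 without the filter, 0 with the compared groups alone, 2 without the fold limit and 0 to 2 with a library left out.

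With the replicate block, which pairs libraries by batch, 1 member was called in BM MSC against P0 Emcn−, Thbd was gained in lung against P0 Emcn+ (1.55), Plau was lost in BM MSC against P0 Emcn− (-1.40), and Procr in lung against P0 Emcn− turned to 0.11 without a call. The block changed no other call of a member.

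F8 in lung against P0 Emcn− lay at 0 within error, at -0.018 by DESeq2, -0.006 with ashr, -0.000356 without the filter, -0.00344 with the stricter filter and -0.12 to 0.18 with a library left out. With a library left out, signs turned for Procr in P0 Emcn+ against P0 Emcn− (-0.59 to 2.40), lung against P0 Emcn− (-1.14 to 1.92), lung against P0 Emcn+ (-1.40 to 0.0761), BM MSC against P0 Emcn− (-2.19 to 0.80) and P1 against P0 Emcn− (-0.32 to 2.68). Thbd in P0 Emcn+ against P0 Emcn− ran from -0.95 to 0.73. F3 ran from -1.19 to 0.0118 in lung and from -0.0688 to 2.02 in BM MSC against P0 Emcn−. Tfpi ran from -0.14 to 1.05 in BM MSC and from -0.0111 to 0.73 in P1 against P0 Emcn−, from -0.49 to 0.37 in P3 against P1 and from -0.50 to 0.69 in BM MSC against passaged cells. Plau ran from -0.0479 to 0.23 in P1 against P0 Emcn−, and F8 from -0.30 to 0.0588 in BM MSC against passaged cells.

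Over all genes, the compared groups alone gave 249 calls for 743 in lung against P0 Emcn−, 2049 for 3630 in BM MSC against P0 Emcn− and 791 for 1715 in P1 against P0 Emcn−. In P3 against P1, 43 genes were called, but 303 by DESeq2, 150 with ashr, 170 without the filter, 106 with the replicate block, 202 with the compared groups alone and 0 to 78 with a library left out. Without the fold limit, calls were 6609 for 3725 in P0 Emcn+ against P0 Emcn−, 7209 for 4086 in lung against P0 Emcn+, 6853 for 3630 in BM MSC and 3387 for 1715 in P1 against P0 Emcn−, and 6206 for 2761 in BM MSC against passaged cells. With a library left out, calls ran from 406 to 776 in lung and from 805 to 2196 in P1 against P0 Emcn−.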
